A study of Rattus norvegicus with 3 samples.

Results

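The regions described here held an H3K14Ac peak in the ctrl library and in jj replicate 1, but none in jj replicate 2. They were chosen by the presence or absence of peaks in the lists of the 3 libraries, after all peaks that overlapped by at least 1 bp had been merged. Of 36559 merged regions on the 20 autosomes and chromosome X, 3982 (10.9%) met this rule. They made up 26.2% of the 15171 regions called in both jj replicate 1 and ctrl (exact 95% binomial interval 25.5 to 27.0%, counting error only), and the remaining 11189 were called in all 3 libraries. Both values depended on where the lists ended, with 1668 regions (13.7%) when the strongest 13537 peaks of each list were used and 1754 (14.2%) when a −log10 q of at least 3 was required in jj replicate 1 and ctrl. Since the same lists selected the regions, the share is a description.

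H3K14Ac was assayed by ChIP-Seq, with the 07-353 antibody, in the cerebellum (Cll) of Gunn rats 9 days after birth (P9). All animals were of the Gunn strain listed as Hds Blue:Gunn-UDPGTj. The jj animals were hyperbilirubinemic and the ctrl animals were normobilirubinemic. A single animal gave the library of jj replicate 1, whereas the libraries of jj replicate 2 and of ctrl were each made from 3 pooled animals. The pools give no value per animal, and ctrl has no replicate. The paper's methods list 2 sequencing runs for the jj animals and 1 for ctrl, without tying a library to a run. Because 1 of 2 jj libraries held each region, the rule separates the jj libraries from each other and not jj from ctrl.

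Acetylation of lysine 14 on histone H3 is laid down by histone acetyltransferases and removed by deacetylases. The mark is found mostly at active promoters and enhancers, where the neutralised charge of the lysine loosens the contact between histone and DNA and bromodomain proteins can bind. In the postnatal Cll, granule cell precursors are dividing and differentiating, and chromatin from all cell types of the tissue enters such a ChIP. A smaller number of cells carrying the mark and less mark per cell cannot be told apart in bulk tissue.

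The 3 lists were of unequal length. On the assembled chromosomes jj replicate 1 had 29428 peaks, ctrl had 20871 and jj replicate 2 had 13537. Each list stopped at nearly the same strength, with a lowest −log10 q of 1.02, 1.01 and 1.00 in that order. Here q is a p-value corrected for multiple testing, and the −log10 q of a peak is a mean over its length. The background coverage that the fold and −log10 p of the most frequent peak height imply was 0.589 in jj replicate 1, 0.539 in ctrl and 0.345 in jj replicate 2. The last was 0.641 times that of ctrl, so jj replicate 2 stood apart from the other libraries in coverage. Its list was also the shortest, with the ctrl list between the others in length. The part of coverage in the absence of these regions from the jj replicate 2 list was not tested.

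The deposited folds of the weakest peaks were slightly higher in jj replicate 2 than in the other libraries. Among peaks with a −log10 q below 1.5, the median fold over background was 3.17 in jj replicate 1, 3.25 in ctrl and 3.34 in jj replicate 2. These folds fit a ratio with 1 added to both the peak height and the background. With such a ratio the same fold stands for more enrichment where background coverage is lower, as in jj replicate 2. The libraries thus differed more in enrichment than these medians show. Of the 3982 regions, 3404 (85.5%) had a ctrl fold and 3447 (86.6%) a jj replicate 1 fold above 3.34. The share was 98.5% of the regions called in all 3 libraries in either library. The value of 3.34 is close to the folds of the weakest peaks of every list, so most peaks pass it. Since folds of these libraries are not on the same scale, the shares do not tell how many regions jj replicate 2 could have called. Each fold is relative to the background that MACS2 used for that library, and whether an input control entered it is not given in the sources used here.

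The regions were narrower and weaker than those called in all 3 libraries. Their median width was 555 bp, with quartiles of 466 and 782 bp and extremes of 287 and 3360 bp. Together they covered 2.76 Mb, against 10.2 Mb for the regions called in all 3 libraries, whose median width was 777 bp. The other kinds of region, called in 1 or 2 libraries, had smaller medians of 338 to 536 bp. In jj replicate 1 their median −log10 q was 5.37 (quartiles 2.06 and 9.40) and their median fold 5.23. In ctrl the median −log10 q was 2.75 (quartiles 1.67 and 4.75) and the median fold 4.20. The regions called in all 3 libraries had medians of 20.8 and 12.9 for −log10 q and of 8.46 and 7.50 for fold in the same libraries. The median region without a jj replicate 2 peak was therefore a weak peak of the ctrl list, above only 37.4% of it. In the jj replicate 1 list it was a middling peak, above 53.6% of that list. The lists were of unequal length, so these ranks describe each list and are not compared.

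Strength in jj replicate 1 and in ctrl went together, although not tightly. Across the 3982 regions the −log10 q values of these libraries had a Spearman's rho of 0.73, against 0.89 across the regions called in all 3, where the range of values was wider. The value was higher in jj replicate 1 in 3158 regions (79.3%), compared with 94.9% of the regions called in all 3. By other measures the sets were alike, since fold was higher in jj replicate 1 in 72.2% against 73.9%, and the median log2 ratio of −log10 q, jj replicate 1 over ctrl, was 0.65 in both. A −log10 q under 2 in both libraries was found in 791 regions (19.9%), compared with 59 (0.527%) of those called in all 3. At the other end, 98 regions (2.46%) reached 10 in both libraries, compared with 7276 (65.0%). The set thus ran from peaks barely called in either library to a small group in the range of most shared regions.

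The jj replicate 1 peak was usually the wider (76.9% of regions) and covered most of the ctrl peak. All but 5 regions were built from 1 peak of each library, and those 5 held 2 ctrl peaks. The jj replicate 1 peak covered a median of 98.2% of the ctrl peak, and the ctrl peak covered 72.0% of the jj replicate 1 peak, against 87.1% in the regions called in all 3 libraries. In 1834 regions (46.1%) the ctrl peak lay wholly inside the jj replicate 1 peak, and in 264 (6.64%) the reverse was found. Peak centres were a median of 58.5 bp apart. Regions called in all 3 libraries were more closely aligned between the same libraries, with centres 28.5 bp apart and the ctrl peak wholly inside in 63.8%.

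The share of regions with no jj replicate 2 peak fell steeply with peak strength. With the 15171 regions called in jj replicate 1 and ctrl sorted by their ctrl −log10 q, it was 87.1% between 1 and 2 (1433 of 1646 regions) and 72.5% between 2 and 3 (702 of 968). It was 53.1% between 3 and 5 (938 of 1768) and 23.7% between 5 and 10 (801 of 3378). Above 10 the absence became rare, with 2.05% between 10 and 20 (106 of 5178) and 0.0896% from 20 upwards (2 of 2233). Sorted by jj replicate 1 the shares in the same classes were 88.5, 76.9, 67.7, 52.0, 18.0 and 1.12%. The share fell at every step in both series, and in every class it was higher when the class was that of jj replicate 1, the longest list.

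When both strengths were crossed, the share fell with ctrl strength in each jj replicate 1 class (combinations with fewer than 10 regions left aside), whereas its course with jj replicate 1 strength differed between the ctrl classes. Where ctrl and jj replicate 1 each lay between 1 and 2, 791 of 850 regions (93.1%) had no jj replicate 2 peak. With ctrl between 5 and 10, the share was 35.7% when jj replicate 1 was between 2 and 3 (5 of 14). It was 47.9% between 3 and 5 (45 of 94) and 37.6% between 5 and 10 (314 of 835). Above that it was 18.5% between 10 and 20 (395 of 2138) and 12.8% from 20 upwards (37 of 288). In this ctrl class the share thus fell only from the jj replicate 1 class between 3 and 5 upwards. With both between 10 and 20 it was 4.39% (73 of 1663). With ctrl between 1 and 2 the share fell from 93.1% to 85.0, 79.3, 77.8 and 74.5% as the jj replicate 1 class rose to that between 10 and 20. With ctrl between 2 and 3 it was 78.9, 71.5, 73.0, 69.5 and 70.4% over the same classes, and with ctrl between 3 and 5 it was 54.5, 63.1, 60.2, 53.3 and 47.0%, so in these there was no steady fall.

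Where ctrl was weak and a jj replicate 2 peak was called, that peak was close to the lower end of its own list. The regions called in all 3 libraries had a median jj replicate 2 −log10 q of 2.07 in the lowest ctrl class, and 45.1% of them were under 2. In the next classes the median was 2.75, 3.26, 4.73, 8.41 and 13.5, the last 2 being above the 6.27 of the whole jj replicate 2 list. The strength that jj replicate 2 reached where it had a peak thus rose over the same classes in which its peaks were less and less often missing.

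Within most classes of strength the regions were also narrower than those called in all 3 libraries. In the ctrl class between 5 and 10 the regions without a jj replicate 2 peak had a median width of 527 bp, against 716 bp. A merged region of 3 peaks can be wider than one of 2 by its construction, so the ctrl peak alone was also compared. It measured 408 bp against 560 bp in that class, 371 against 460.5 bp between 3 and 5, and 474 against 661 bp between 10 and 20. In the lowest class the ctrl peaks were close in width, at 408 and 425 bp, and in the lowest class of jj replicate 1 strength they measured 428.5 and 427 bp. Strength was not equal within a class. Between 5 and 10 in ctrl the median ctrl −log10 q was 6.46 against 7.66, and between 10 and 20 it was 11.4 against 14.4, so width and the strength left within a class cannot be told apart here.

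The median gap to the nearest other region of the set was 181115 bp. Another lay within 10 kb of 233 regions (5.85%), and one of the set lay within 10 kb of 5.68% of the regions called in all 3 libraries. Nearness to the set was thus similar for both kinds at 10 kb. At longer range the regions called in all 3 libraries were somewhat nearer to the set. Their median gap to it was 158321 bp, and 38.0% of them had one of the set within 100 kb, against 35.6%. From the set, the median gap to the nearest region called in all 3 libraries was 65328 bp, with quartiles of 19810 and 212112 bp and extremes of 916 and 2989303 bp. Regions called in all 3 libraries were a median of 47299 bp from one another. Under stricter lists the gap from the set to a region called in all 3 libraries was shorter. It was 40710, 37419 and 36025 bp with a −log10 q of at least 2, 3 and 5 in jj replicate 1 and ctrl. With at least 3 in all lists it was 40747 bp, and with lists of equal length 35991 bp. The gap among regions called in all 3 libraries was not computed for these lists, so the comparison covers the full lists only. In the full lists the difference was at long range, since 14.1% of the regions and 14.7% of those called in all 3 had such a neighbour within 10 kb, but 59.8 and 72.3% had one within 100 kb.

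Within classes of ctrl strength the direction turned. In the ctrl classes from the lowest to that between 10 and 20 the median gap was 135329, 74326, 45049, 32282 and 43524 bp for the regions without a jj replicate 2 peak. For the regions called in all 3 libraries it was 145936, 80314, 46272, 38092 and 47493 bp, which is the longer gap in each of these classes. Within classes of jj replicate 1 strength the regions without a jj replicate 2 peak were the nearer in 5 of 6 classes, most so between 3 and 5, at 66826 against 125002 bp. In the lowest class they were the farther, at 189140 against 159886 bp. Weak regions of either kind were the remote ones by both classings.

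The closest neighbour, of whatever kind, was a region called in all 3 libraries for 1482 regions (37.2%), a region called in jj replicate 1 alone for 1314 (33.0%), another region of the set for 533 (13.4%) and a region of ctrl alone for 439 (11.0%). For regions called in all 3 libraries the shares were 47.8, 25.4, 14.5 and 8.18%. Among all merged regions these kinds made up 30.6, 37.3, 10.9 and 15.0%. The share of neighbours called in all 3 libraries was thus above their share of all regions for both sets, and the higher for the regions called in all 3 themselves.

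Absence from the jj replicate 2 list was seldom a matter of a few bases. The nearest jj replicate 2 peak was a median of 52483 bp away, and 14 regions (0.352%) had one within 1 kb. Just inside the rule, chr7:70672386-70673581 ended 1 bp from a jj replicate 2 peak, with a −log10 q of 1.70 in jj replicate 1 and 1.61 in ctrl. The next were chr11:66681729-66682237, at 27 bp (3.13 and 1.41), and chr1:150320464-150321005, at 57 bp (3.67 and 2.28). Just outside it, a jj replicate 2 peak shared 11 bp with the other peaks at chr20:12436215-12437070, 45 bp at chr1:182556234-182557488 and 59 bp at chr9:35435530-35436477, with a jj replicate 2 −log10 q of 1.83, 2.72 and 1.89. All 6 borderline regions were weak in ctrl, the strongest of them being the last, at 3.46. Positions are on rn4 and count from 1.

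A small group was strong in both libraries and still lacked a jj replicate 2 peak. Of the 7374 regions with a −log10 q of at least 10 in jj replicate 1 and ctrl, 98 (1.33%, exact 95% interval 1.08 to 1.62%, counting error only) belonged to it. Their median folds, 9.46 in jj replicate 1 and 8.30 in ctrl, were near the 9.27 and 8.47 of the other strong regions, in which jj replicate 2 had a median fold of 7.16 and a median −log10 q of 9.72. The jj replicate 2 fold comes from a lower background coverage and is not on the scale of the other folds. The 98 regions were narrower than the other strong regions, with a median of 560.5 bp against 794 bp. No nearby jj replicate 2 peak stood in for the missing ones, the smallest gap being 1210 bp and the median 45141 bp. The 98 regions were found on all 21 chromosomes, with at most 15 on 1 of them (chromosome 1), and 2 on X.

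The 10 strongest, ranked by the lower of their −log10 q values in jj replicate 1 and ctrl, had ctrl values of 14.9 to 77.8 and jj replicate 1 values of 16.6 to 55.5. In 9 of them jj replicate 1 had the higher value. The exception was the strongest, chr7:142847772-142849349, with 55.5 in jj replicate 1 and 77.8 in ctrl. Its folds were only 6.03 and 9.19, the former being the lowest of the 10. The jj replicate 1 peak spanned 1571 bp and the ctrl peak inside the region 261 bp, and the nearest jj replicate 2 peak was 411134 bp away. The region ended at the last base covered by any peak of the 3 lists on chromosome 7, so no call lay beyond it at that end of the chromosome, and it ranked as number 55 by −log10 q in the ctrl list and number 95 in the jj replicate 1 list.

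The other 9 were narrow peaks with similar folds in both libraries. At chr14:111750242-111750859 the fold was 11.4 in jj replicate 1 and 11.0 in ctrl, with a −log10 q of 24.1 and 21.1. At chr1:8182263-8182600, the narrowest of the 10 at 338 bp, the folds were 9.64 and 10.3 and the −log10 q 19.6 and 19.0. At chr15:69267311-69267915 the folds were 11.5 and 10.4, and the nearest jj replicate 2 peak was 336635 bp away. Distance to a jj replicate 2 peak varied widely among these regions. It was 3507 bp at chr16:19041957-19042440 (folds 7.39 and 8.32), 4795 bp at chr10:64081272-64081797 (8.70 and 9.19) and 8952 bp at chr3:9082672-9083269 (9.19 and 9.09). It was 10737 bp at chr2:179204242-179204899 (9.73 and 9.54), 16801 bp at chr1:95710407-95710965 (9.36 and 9.34) and 21964 bp at chr7:117212750-117213307 (11.5 and 9.62). In 4 of the 10 the fold, which is relative to the background used for each library, was higher in ctrl.

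The widest regions differed in strength among themselves. The region chr3:146134540-146137899 measured 3360 bp, all of it a jj replicate 1 peak, with a −log10 q of 5.71 in jj replicate 1 and 1.96 in ctrl. That at chr2:35605083-35607928 measured 2846 bp, with 1.10 and 1.14. That at chr7:10587315-10590130 measured 2816 bp, with 4.79 and 4.57. Only that on chromosome 2 was weak in both libraries. In each the ctrl peak was much shorter than the jj replicate 1 peak, at 1647, 317 and 814 bp.

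Runs of neighbouring regions of the set, with gaps of at most 10 kb and no other region between them, were few and short. There were 101 runs, which held 211 regions, and 95 of them were pairs. The tightest of the longest runs lay at chr9:82245124-82261684, where 4 regions with gaps of 1984 to 7077 bp filled 16.6 kb. Their −log10 q was between 3.79 and 8.67 in jj replicate 1 and between 2.70 and 6.89 in ctrl. The region farthest from any region called in all 3 libraries was chr13:61649151-61650666, at 2989303 bp. It had a −log10 q of 2.84 in jj replicate 1 and 1.38 in ctrl. The nearest other region of the set lay 338365 bp away.

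Another 2 runs of 4 regions were picked out after their values had been seen, because both lay on chromosome 10 with starts 219 kb apart. The run at chr10:88569296-88592029 had a −log10 q of 7.49 to 9.80 in jj replicate 1 and of 1.46 to 5.62 in ctrl. The run at chr10:88787949-88812074 had 7.13 to 9.56 and 1.42 to 3.67. From start to start their regions were 6222, 8825 and 7206 bp apart in the former and 6668, 9688 and 7255 bp apart in the latter, and the last gap was 6667 bp in both. The number of regions and the upper limit of the gaps were fixed by the choice of the runs, so nothing is read from their likeness. Their sequence was not analysed here.

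Chromosome X held these regions in a higher share than any autosome. There 196 of 456 regions called in jj replicate 1 and ctrl (43.0%, exact 95% interval 38.4 to 47.7%) had no jj replicate 2 peak, against 3786 of 14715 (25.7%, 25.0 to 26.4%) on the autosomes. Both intervals hold counting error only and no spread between animals or libraries. The autosomes ranged from 21.3% on chromosome 10 (237 of 1111) to 29.6% on chromosome 12 (148 of 500). The peaks of X were also weaker, with a ctrl −log10 q under 3 in 37.5% of its 456 regions against 16.6% on the autosomes.

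With classes of strength taken into account the excess on X was not seen. If each X region had the autosomal share of its class of ctrl and jj replicate 1 strength, 225 regions without a jj replicate 2 peak would be found on X, more than the 196 counted. By ctrl class alone the number was 216. The X regions of the set were weaker, wider and more isolated than the autosomal ones, with a median ctrl −log10 q of 1.91 against 2.80, a median width of 641.5 against 552 bp and a median gap of 160536 against 61857 bp to a region called in all 3 libraries. Weaker and more isolated regions on X were also found among those called in all 3 libraries. Their median ctrl −log10 q was 7.07 on X against 13.1, and their median gap was 150766 against 46377 bp. In width they went the other way, with a median of 734 bp on X against 779 bp on the autosomes. Chromosome 12 had the highest count for its strengths among all chromosomes, with 148 regions where the class shares over all chromosomes give 122, a ratio of 1.21. X had the lowest, at 0.877. The sexes of the animals are not given in the labels used here.

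The authors also called each jj library with ctrl as the control, and these lists share their libraries with the rule. Of the 3982 regions, 957 (24.0%) overlapped a peak of jj replicate 1 called against ctrl, compared with 31.9% of all merged regions and 71.0% of those called in all 3 libraries. The 957 had a median −log10 q of 10.3 in jj replicate 1 and 3.50 in ctrl, and the remaining 3025 had 3.73 and 2.48. Overlap with this list rose with jj replicate 1 strength. In its classes between 10 and 20 and from 20 upwards the share was 58.6 and 85.1%, close to the 62.9 and 86.3% of regions called in all 3 libraries. Between 5 and 10 it was 27.1 against 41.3%, and between 3 and 5 it was 13.4 against 24.6%. By ctrl class the set overlapped the list less often, with 31.0 against 63.2% between 5 and 10 and 33.0 against 76.7% between 10 and 20.

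The 98 strong regions overlapped that list less often than other strong regions, 34 (34.7%) against 78.5%. Among the 10 strongest, 2 did so. One was chr15:69267311-69267915, with a fold of 3.05 over ctrl and a −log10 q of 6.46, and the other was chr7:117212750-117213307, with 3.41 and 7.56. None of the 3982 overlapped a peak of jj replicate 2 called against ctrl, a list that touched 121 (0.331%) of all merged regions. The rule used the same jj replicate 2 library, so nothing is read from this count.

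The regions held by the other pairs of libraries were fewer and weaker. Both jj libraries without ctrl held 611 regions, with a median width of 536 bp and a median −log10 q of 2.96 in jj replicate 1 and 2.36 in jj replicate 2. jj replicate 2 and ctrl without jj replicate 1 held 157, with a median width of 496 bp and medians of 2.08 in jj replicate 2 and 1.77 in ctrl. The 3982 regions were therefore the most frequent of the 3 kinds called in 2 of 3 libraries. This kind was also the most frequent with the strongest 13537 peaks of each list, which gave 1668 regions of jj replicate 1 and ctrl, 403 of jj replicate 2 and ctrl and 275 of both jj libraries.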

How the data were processed

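H3K14Ac ChIP-Seq lists of 3 libraries were used. By the submitters' notes and the paper's methods, reads were mapped to rn4 with Bowtie2, checked with FastQC and called as broad peaks with MACS2, and HOMER was also named; versions, MACS2 options, read totals and any input control are not given in the sources used here. The authors deposited, per peak, a fold over background (a ratio) and the −log10 p-value and −log10 q-value, as means over the peak. Read depth is unknown, and background coverage was derived from fold and −log10 p under a Poisson model. The derivation took the fold as a ratio with the same constant added to the peak height and to the background. Equal folds in libraries of unlike background coverage are therefore unlike enrichments.

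Peaks were merged with Python 3.11.15, numpy 2.4.6, pandas 2.3.3 and scipy 1.17.1, checked on simulated lists. A region took the strongest peak of each library. The 3566 peaks on random, unplaced or mitochondrial sequences of the 3 lists were left out. Named regions were the 10 with the highest lower −log10 q and the 3 widest. Also named were the 3 nearest to and the 3 barely overlapping a jj replicate 2 peak, and the tightest run. The last was the region farthest from any region called in all 3 libraries. The 8 regions of the 2 runs on chromosome 10 were added after their values had been seen. Members and lists were chosen with earlier results of these data known. No test was made, since the lists chose the regions. Alternatives were other overlaps, stricter or equal-length lists, all sequences, each library left out and X left out.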

Additional observations from a re-analysis of the deposited data

How the results depend on the processing

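Of 48 alternative values, 26 stayed within the limits used (1.5 times, or the exact 95% binomial interval of 25.5 to 27.0% for the share) and 22 moved. Median width was within these limits under each alternative for which it was computed, at 516.5 to 572 bp; with a library left out only the number of regions was computed. Joining at 50% overlap of the shorter peak gave a share without a jj replicate 2 peak of 25.1%, and joining peaks within 1 kb gave 27.6%. With a −log10 q of at least 2, 3 and 5 required in jj replicate 1 and ctrl, 2372, 1754 and 853 regions were left, with shares of 17.9, 14.2 and 7.99% and a median gap to a region called in all 3 libraries of 40710, 37419 and 36025 bp. The gap from 1 region of the set to the next was 272904 bp at 3 and 481471 bp at 5. With at least 3 in all lists, the values were 2521 regions, 20.3% and 40747 bp. With the strongest 13537 peaks of each list they were 1668 regions, 13.7% and 35991 bp. Number, share and distance thus depended on how the lists ended. Leaving out 1 library at a time turned the rule into one on the other libraries and gave 9501 (without jj replicate 1) to 17632 regions (without ctrl). Leaving out X, an alternative added after the data had been seen, gave 3786 regions and a share of 25.7%. No paired analysis was possible because ctrl is 1 library and no label pairs it with a jj library.

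Each library is 1 value, and ctrl has no replicate. jj replicate 1 and 2 differ in the number of animals and in background coverage, and the jj animals were sequenced in 2 runs. The run of each library is not stated. Number of animals, coverage and run cannot be told apart. A region missing from a list was not called there, and its signal below the limit of the list was not measured. The read depth behind each value is unknown. Without a genome of the same build, no gene or sequence was assigned to a region.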
